A study of Mus musculus with 5 samples.

Results

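Metallothioneins are small cysteine-rich proteins of the cytosol that bind zinc and copper and buffer the free metal in a cell. Mt1 and Mt2 encode the broadly expressed forms, whose transcription is known to follow zinc through the transcription factor MTF-1 and also glucocorticoids, interleukin-6 type cytokines and stress. Mt3 encodes a form best known from brain. Zinc withholding and zinc loading are both known parts of the response of macrophages to microbes and cytokines.

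The genes described here are Mt1, Mt2 and Mt3, 3 of the 21617 genes in the deposited single-cell count table, named in advance and taken in every cell class, subcluster and library. The table holds 41191 mouse cells in 5 libraries made with a droplet-based 3' kit, 1 library for each group. The control was macrophages elicited with thioglycollate, an irritant broth. The others came from foreign body granulomas, the cell masses that form around an implant, here of sponge or of silk and taken after 2 weeks (early) or 4 weeks (late). Values for granulomas are in the order early sponge, late sponge, early silk and late silk throughout. The labels state no strain, sex, age, implant site or number of animals per library. The control was thus another kind of sample, an elicited exudate and not tissue without an implant, and tissue and treatment cannot be told apart in any comparison with it.

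With 1 library per group there is no replicate check and no test of a difference between groups: each interval below covers counting error only (95%; exact Poisson for levels, Clopper-Pearson for shares, conditional binomial for ratios). Levels are counts per 1000000 UMIs (CPM) summed over the cells of a class. A UMI marks 1 captured transcript end, so levels of different genes were not divided by length, but genes can still differ in how well they are captured. A gene was called 2-fold higher or lower when the log2 ratio of CPM with 10 CPM added reached 1 and the higher library held at least 100 UMIs and 50 CPM of it. The cell classes and subclusters are the authors' own and were made from the same cells, so levels between subclusters are a description.

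The libraries held 1873 (late silk) to 12347 cells (early sponge), with median depths from 3818 to 7109 UMIs per cell, deepest in the control, and median mitochondrial shares from 3.24% to 6.54%. Between 21 and 91 barcodes of a library were also present in another. No doublet caller was run. The monocyte-macrophage class (Mo-Mac, 1045 to 7783 cells per library) had all 7 macrophage markers in each library at a summed 15921 to 24748 CPM, and the fibroblast class (211 to 2127 cells, granulomas only) carried the fibroblast markers.

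All 3 genes lie on mouse chromosome 8, on the plus strand, in 3 exons each (GENCODE vM21, GRCm38). Mt3 spans 94152607 to 94154146, Mt2 94172664 to 94173568 and Mt1 94179082 to 94180327, so that 5513 bases part Mt2 from Mt1 and 18517 part Mt3 from Mt2. The fourth gene of the cluster, Mt4, a form known from stratified epithelium, starts at 94137197 and had 9 UMIs in 7 cells. The stretches before the annotated starts are shown as the promoters of the genes described here. They come from RefSeq (GRCm38.p6, plus strand, 5′ to 3′). Capitals mark matches to TGCACNC or TGCGCNC on either strand, the core letters of the metal response element that MTF-1 binds. The Mt1 stretch is chr8:94178839-94179081, the Mt2 stretch chr8:94172368-94172617 and the Mt3 stretch chr8:94152357-94152606.
Mt1: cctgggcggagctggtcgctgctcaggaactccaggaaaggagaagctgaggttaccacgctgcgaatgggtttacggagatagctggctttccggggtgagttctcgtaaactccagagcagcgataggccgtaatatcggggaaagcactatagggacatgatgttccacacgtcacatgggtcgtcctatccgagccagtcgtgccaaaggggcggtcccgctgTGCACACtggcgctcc
Mt2: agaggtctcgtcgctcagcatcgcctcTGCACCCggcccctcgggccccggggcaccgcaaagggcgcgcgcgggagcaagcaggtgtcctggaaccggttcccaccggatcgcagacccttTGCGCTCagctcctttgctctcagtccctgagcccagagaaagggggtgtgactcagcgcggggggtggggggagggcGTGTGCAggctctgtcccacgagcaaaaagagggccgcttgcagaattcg
Mt3: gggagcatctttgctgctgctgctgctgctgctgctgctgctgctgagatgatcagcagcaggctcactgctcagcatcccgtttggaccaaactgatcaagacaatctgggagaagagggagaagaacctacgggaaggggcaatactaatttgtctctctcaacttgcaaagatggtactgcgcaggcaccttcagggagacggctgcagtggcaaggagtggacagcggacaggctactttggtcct
The Mt1 stretch held 1 match, the Mt2 stretch 3 and the Mt3 stretch 0. The Mt1 stretch is 243 bases, since the bases inside the first annotated exon were left off. Other transcripts of all 3 genes start further on, the last at 94179241 for Mt1, 94172860 for Mt2 and 94152746 for Mt3. The bases next to those later starts are not in the stretches, so the counts of matches do not cover every promoter of a gene. Among 32851 stretches of 250 bases before RefSeq starts, 21.406% held at least 1 match and 1.2633% at least 3. The first 180 transcribed bases held more: 4 matches in Mt1-201, 3 in Mt2-201 and 3 in Mt3-201 (GENCODE), a number of at least 3 that 0.60326% of 21218 transcripts reached. In that stretch Mt3 was thus like Mt1 and Mt2. A match is a string of letters, not a bound site, and nothing on MTF-1 follows from the absence of one in a window.

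Mt1 was the metallothionein found in most cells: 192711 UMIs in 22606 cells, against 86907 UMIs of Mt2 in 8429 cells and 10948 UMIs of Mt3 in 1293 cells. Fibroblasts had the highest Mt1 and Mt2 levels of the classes in every granuloma, and Mt3 lay almost entirely in a single macrophage subcluster, C7. The fibroblast class as deposited made up 18.7%, 21.1%, 9.25% and 14.7% of the granuloma cells and held 75.3%, 75.2%, 34.0% and 57.1% of the Mt1 UMIs. Their part of the Mt2 UMIs was larger still, at 90.5%, 92.3%, 76.6% and 84.3%. C7 made up 9.09%, 27.0%, 43.6% and 26.5% of the cells in that order and held 85.1%, 94.4%, 92.9% and 94.3% of the Mt3 UMIs.

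**Figure D1:**
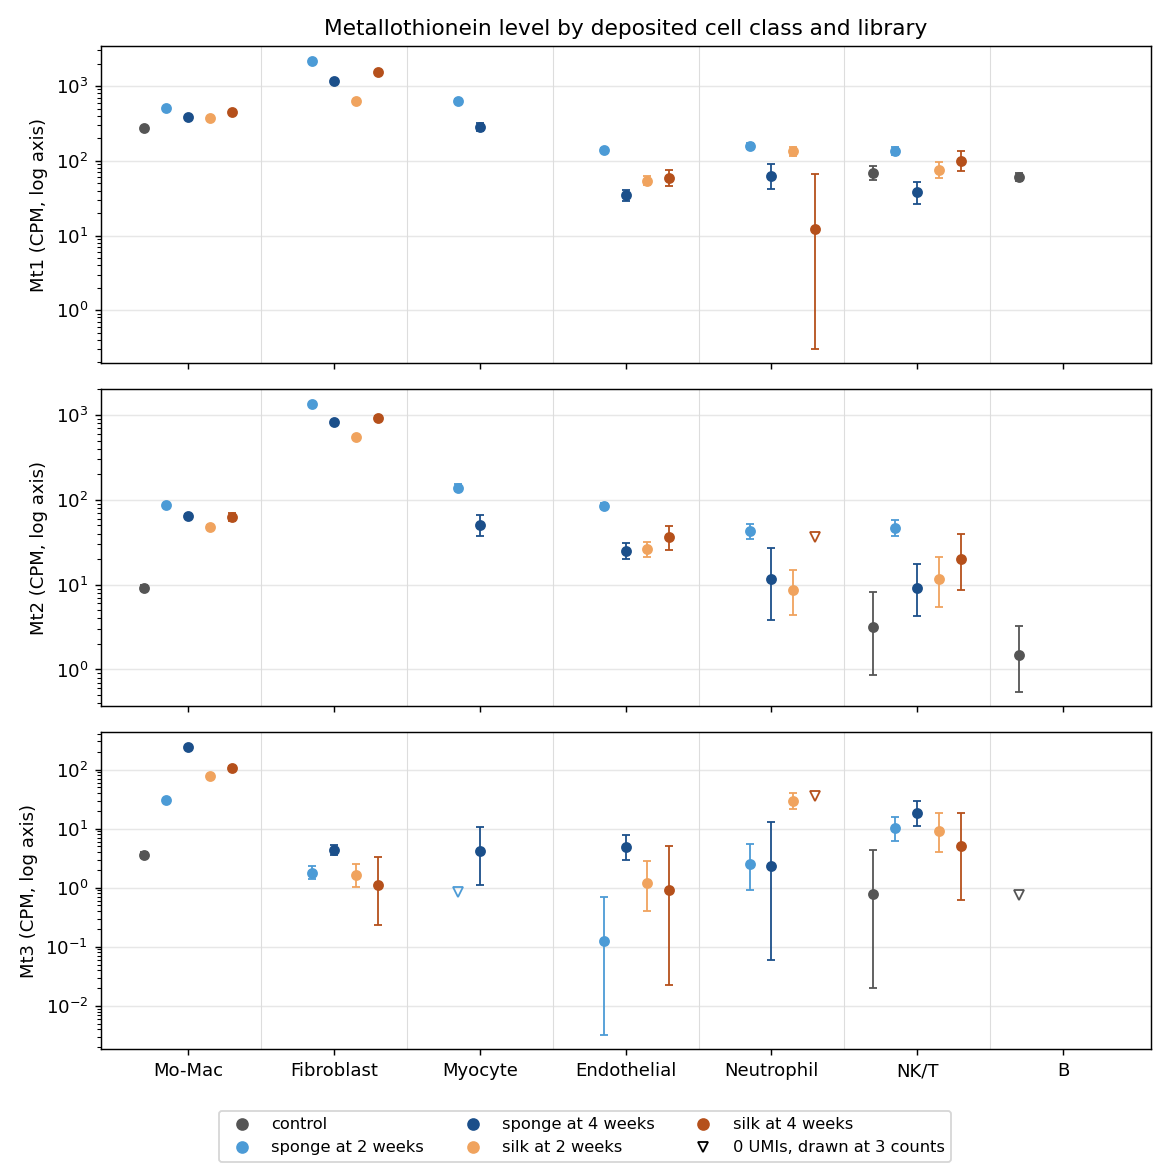
Level of Mt1, Mt2 and Mt3 (CPM, log axis) by cell class, one point per library with its 95% Poisson interval, counting error only. Fibroblasts carry the highest Mt1 and Mt2 in each granuloma, and Mt3 is highest in Mo-Mac cells of the late sponge library. Open triangles mark 0 UMIs, drawn at 3 counts.

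In fibroblasts, the cells that build the collagen capsule around an implant, Mt1 stood at 2190 CPM in early sponge, 1164 in late sponge, 639 in early silk and 1538 in late silk. Mt2 stood at 1354, 818, 551 and 924 CPM. The early sponge library was the highest and the early silk library the lowest for both genes. At least 1 Mt1 UMI was present in 97.5%, 91.3%, 77.7% and 90.5% of fibroblasts, whose median depths ran from 10133 to 15207 UMIs.

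The log2 ratio of silk to sponge at 2 weeks was -1.78 (-1.81 to -1.74) for Mt1 and -1.30 (-1.33 to -1.26) for Mt2, and both were called lower, as were 2.31% of the genes measured there (1.48% were called higher). At 4 weeks the ratios had the other sign and were small, 0.40 (0.35 to 0.45) and 0.18 (0.11 to 0.24), with neither gene called (2.21% of genes higher, 1.09% lower). From 2 to 4 weeks the sponge ratio was -0.91 for Mt1 and -0.73 for Mt2, and neither was called (0.928% of genes higher, 1.11% lower). In silk it was 1.27 for Mt1, called higher as 5.39% of genes were (3.73% lower), and 0.75 for Mt2, not called. The class held different subclusters: F1, where both genes were highest, made up 105 of 798 fibroblasts in early silk and 126 of 211 in late silk, against 1358 of 2127 and 829 of 1495 in sponge. With equal weight to each subcluster the silk Mt1 ratio was 0.98, short of 2-fold.

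Within the fibroblasts Mt1 was highest in subcluster F1, at 2591, 1763, 1008 and 2718 CPM and Mt2 there stood at 1533, 1178, 918 and 1623 CPM. F1 of early silk held 105 cells, and 1 of them with 547 UMIs of the 2 genes made up 25.4% of their sum, so the level of that library leans on a single cell. F1 Mt1 was called lower in silk than sponge at 2 weeks (2.43% of genes) and higher in late than early silk (6.65%). In subcluster F2 Mt1 stood at 1894, 507, 645 and 546 CPM and Mt2 at 1227, 425, 580 and 333. There the early sponge library stood alone: both genes were called lower in late sponge (log2 ratios -1.90 and -1.53, beside 2.75% of genes) and in early silk (-1.55 and -1.08, beside 1.58% of genes). Late against early silk gave -0.24 for Mt1 in F2 and 1.43 in F1, a difference between subclusters that was not tested. In F3 and F4 Mt1 stood at 504 to 1610 CPM in the 3 libraries with at least 50 such cells.

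The control Mo-Mac cells had an Mt1 level of 275 CPM, and the granulomas had 502 and 384 (sponge) and 370 and 446 (silk). All 4 granulomas lay above the control by less than 2-fold. The log2 ratios were 0.87 (0.84 to 0.89), 0.48 (0.44 to 0.52), 0.43 (0.40 to 0.46) and 0.70 (0.64 to 0.75). Mt1 was called in 0 of the 4. The share of Mo-Mac cells with an Mt1 UMI ran the other way, 69.9% in the control against 51.1% to 59.9%, and the control cells were deeper (median 7749 against 3078 to 4729 UMIs). With every cell thinned to 1000 UMIs (345 cells of the control were too shallow for this, and 485, 631, 642 and 192 of the granulomas) the share was 20.7% in the control and 23.0% to 28.4% in the granulomas.

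Mt2 separated control from granuloma macrophages more widely. Its level was 9.13 CPM in control cells, 87.0 and 64.5 in sponge and 48.4 and 62.8 in silk. The thinned share of cells with an Mt2 UMI was 0.632% against 3.23% to 6.74%. The log2 ratios to the control were 3.25 (3.13 to 3.37), 2.82 (2.69 to 2.96), 2.40 (2.28 to 2.53) and 2.78 (2.60 to 2.96). Mt2 was called higher in early sponge (11.9% of genes), late sponge (11%) and late silk (9.97%). Early silk (10.9%) was over 2-fold but under 50 CPM. Genes called lower were 5.67%, 5.68%, 5.85% and 5.15%. These 4 comparisons share the control library, and 6.3% of the genes measured in all of them were called higher in each.

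Between materials and times Mt1 and Mt2 of Mo-Mac cells differed by less than 2-fold and neither was called. Silk against sponge gave log2 ratios of -0.44 and -0.85 at 2 weeks (1.75% of genes higher, 4.65% lower) and 0.22 and -0.04 at 4 weeks (0.42% higher, 0.614% lower), for Mt1 and Mt2. Late against early, the ratios were -0.39 and -0.43 in sponge and 0.27 and 0.38 in silk, and the silk Mt1 ratio became -0.02 when each subcluster was given equal weight.

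Fibroblast markers inside Mo-Mac cells were read beside these levels, as free RNA itself was not measured. The markers stood at 0.592%, 0.784%, 0.192% and 0.0801% of their level in the fibroblasts of the same library. Mt2 stood at 6.42%, 7.89%, 8.78% and 6.80% of its fibroblast level. In Mo-Mac cells without a fibroblast-marker UMI, Mt2 stood at 77.1, 56.0, 46.8 and 72.4 CPM. These were 971 of 7113, 730 of 4605, 4048 of 7350 and 727 of 1045 cells, and they were shallower in the sponge libraries. The part of free fibroblast RNA in the Mo-Mac levels was not tested.

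Mt1 and Mt2 also differed among the Mo-Mac subclusters. C5 had the highest Mt1 in sponge and was near C8 in early silk, at 789 and 595 CPM in sponge and 550 in early silk, with Mt2 at 137, 97.2 and 77.7. C7 had 498, 420, 395 and 477 CPM of Mt1, and C8 had 477, 441 and 574 CPM in early sponge, late sponge and early silk. C6 stood at 230 to 293 CPM. C4 stood at 460, 113 and 248 CPM. C3, like C4, was highest in the early libraries, with 246 and 168 CPM against 62.7 and 52.7 in the late ones, and had 3.90 to 18.7 CPM of Mt2. The control subclusters C1 and C2 had 282 and 287 CPM of Mt1, above C3 and near C6 of the granulomas, but only 10.6 and 3.69 CPM of Mt2.

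**Figure D2:**
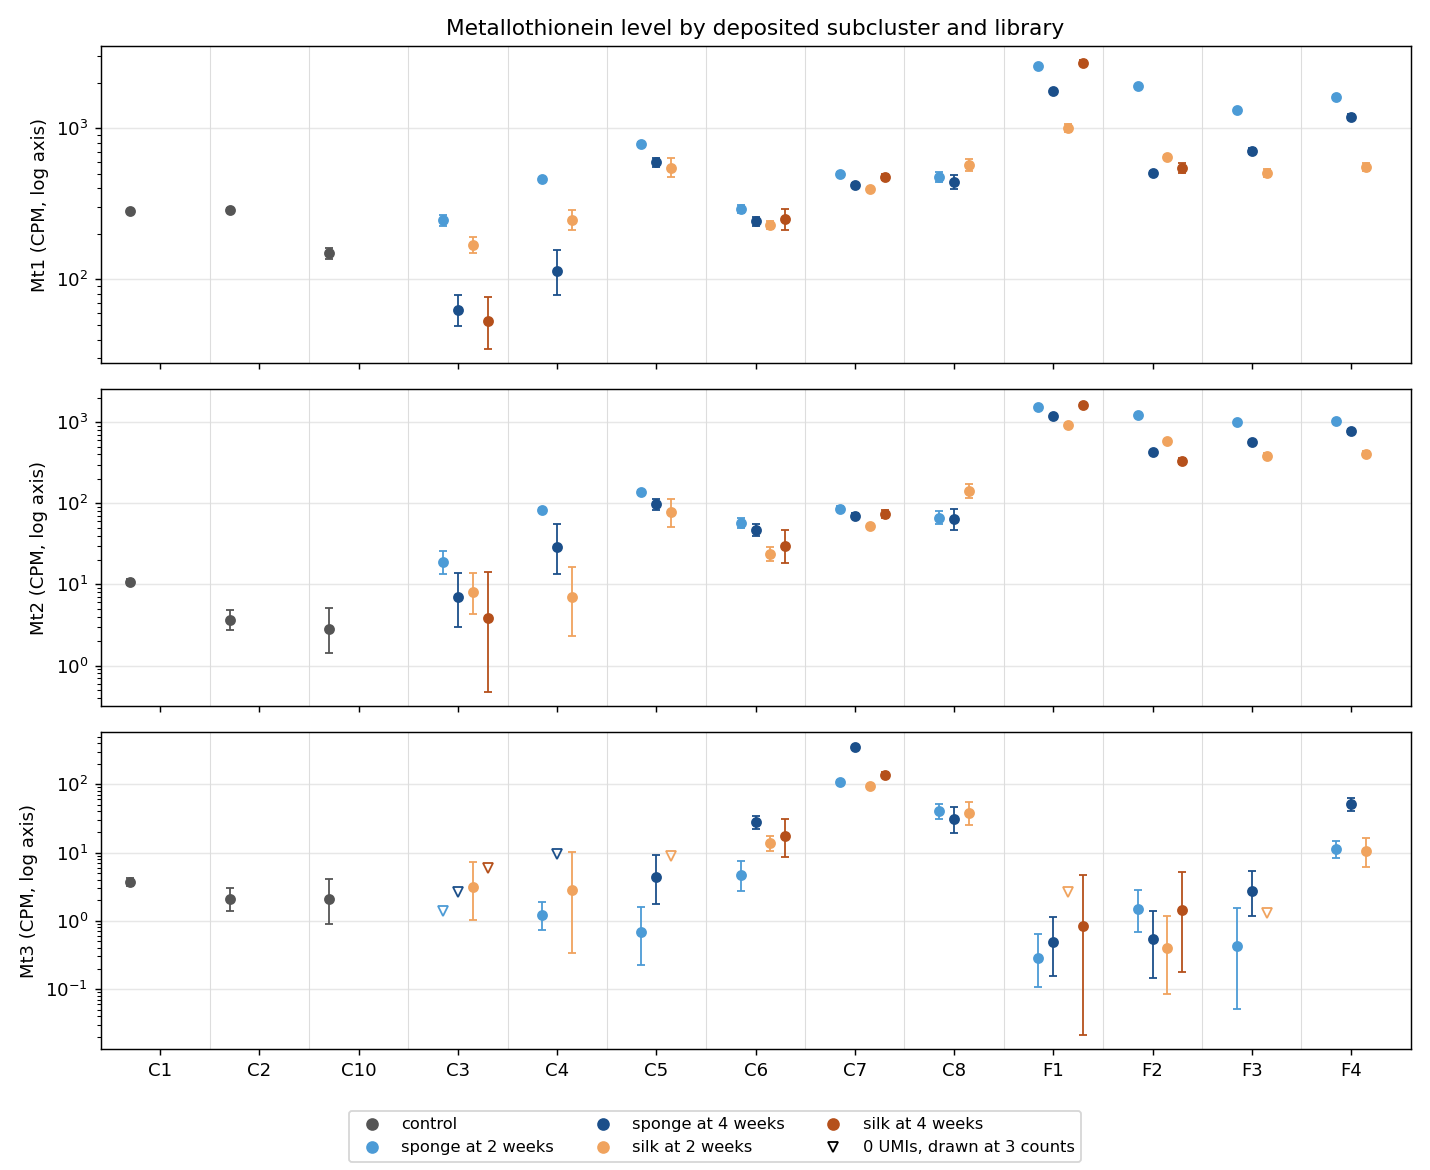
Level of Mt1, Mt2 and Mt3 (CPM, log axis) in each deposited Mo-Mac and fibroblast subcluster with at least 50 cells, one point per library with its 95% Poisson interval. F1 is highest for Mt1 and Mt2, and C7 for Mt3. Open triangles mark 0 UMIs, drawn at 3 counts.

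The balance between the 2 genes was unlike in fibroblasts and macrophages. Mt2 made up 38.2%, 41.3%, 46.3% and 37.5% of the Mt1 and Mt2 UMIs in fibroblasts and 32.6% to 42.1% in endothelial cells. In granuloma Mo-Mac cells it was 14.8%, 14.4%, 11.6% and 12.3%, in myocytes 17.9% and 15.3%, and in control Mo-Mac cells 3.21%. Fibroblast markers in the myocytes stood at 6.03% and 8.25% of their fibroblast level. Single markers ranged from 0.907% to 7.10% in early sponge and from 0.634% to 10.4% in late sponge. At the share of the summed markers fibroblast RNA would bring 81.7 and 67.4 CPM of Mt2, beside the 139 and 50.6 CPM seen. At lower single-marker shares it would bring less, and its part in the myocyte balance was not tested. The 5 Mo-Mac values fall below every fibroblast and endothelial value, and over the whole class the control lies apart from the granulomas. NK and T cells had a lower share in the control, 4.35% (1.20% to 10.8%, 4 Mt2 UMIs), than in early sponge, 25.7% (21.1% to 30.7%). Late sponge gave 19.6% (9.36% to 33.9%), early silk 13.2% (6.49% to 22.9%) and late silk 16.7% (7.48% to 30.2%), with intervals that overlap the control. At their marker share fibroblast RNA would bring 9.97 of their 46.4 CPM of Mt2 in early sponge and 5.17 of 9.23 in late sponge. Its part was not tested. C7 alone gave an Mt2 share of 11.7% to 14.7%, the control subclusters C1, C2 and C10 1.27% to 3.64%, and the B cells of the control 2.39%. Granuloma subcluster C3 had lower values than C7, at 7.08%, 10.0% (4.42% to 18.8%), 4.61% (2.48% to 7.75%) and 6.90% (0.846% to 22.8%). The intervals of late sponge and late silk hold the C7 values there, 14.3% and 13.3%. Both silk intervals reach the control value of C1. Some cells differed between materials at 2 weeks: C4 gave 15.3% in sponge and 2.76% (0.903% to 6.33%) in silk, near the control, and neutrophils 21.2% and 6.0% (3.14% to 10.2%). At the marker share of the neutrophils, fibroblast RNA would bring 15.7 of their 42.4 CPM of Mt2 in early sponge and 2.41 of 8.56 in early silk. Its part in the difference was not tested. In fibroblasts 93.9%, 82.6%, 65.8% and 80.6% of cells held UMIs of both genes, against 10.0% to 16.0% of granuloma Mo-Mac cells.

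**Figure D3:**
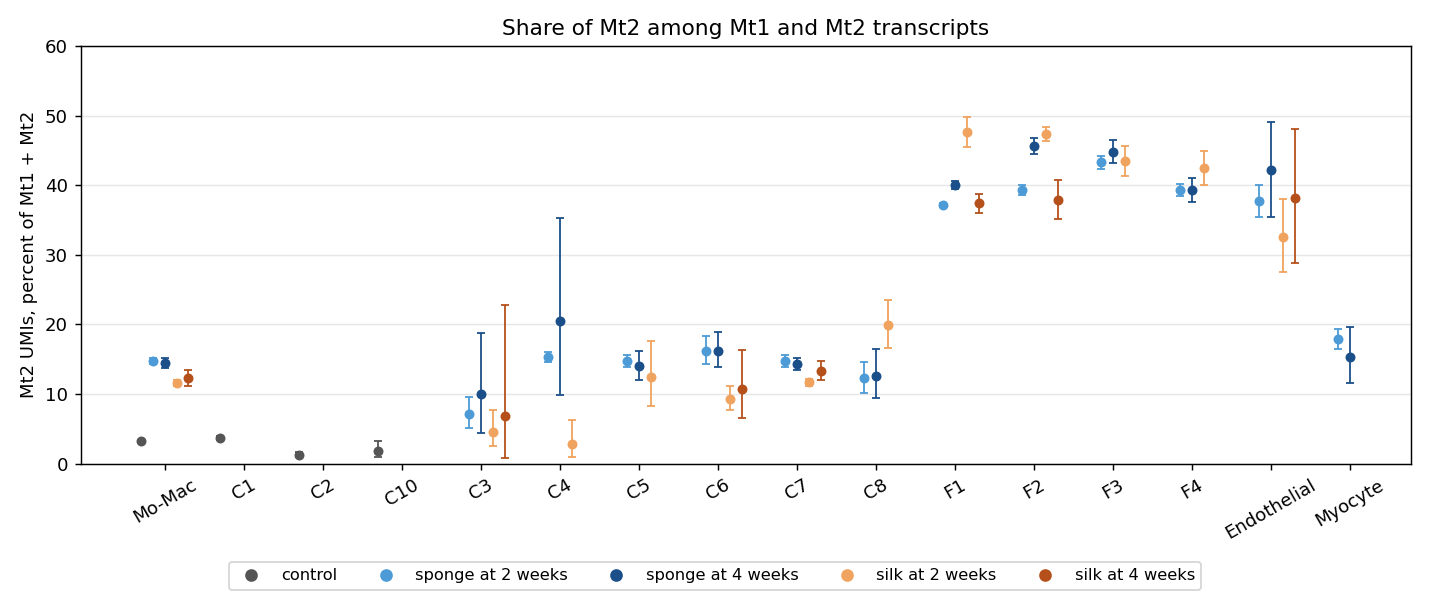
Mt2 UMIs as a percentage of all Mt1 and Mt2 UMIs by class or subcluster, one point per library, with 95% Clopper-Pearson intervals for counting error. Fibroblast subclusters and endothelial cells lie at 32.6% to 47.7%. The Mo-Mac class as a whole lies at 11.6% to 14.8% in granulomas and 3.21% in the control, with a wider range among its subclusters.

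The spread among cells was wide. The 10% of Mo-Mac cells with most Mt1 and Mt2 UMIs held 43.8% of those UMIs in the control and 57.5% to 62.5% in the granulomas. In fibroblasts the share was 34.7%, 40.2%, 53.3% and 39.1%, with a median of 38, 17, 7 and 18 UMIs per cell, so the early silk library had both the lowest typical cell and the most uneven one.

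The other classes had less than fibroblasts of the same library. Endothelial cells had 139 CPM of Mt1 in early sponge and 34.3 to 58.8 in the other granulomas, and 84.1 CPM of Mt2 against 36.2 or less. Fibroblast markers in endothelial cells stood at 3.31%, 1.10%, 0.664% and 0.0762% of their fibroblast level. At that share fibroblast RNA would bring 72.5 CPM of the Mt1 and 44.9 of the Mt2 of early sponge, and 12.8, 4.24 and 1.17 CPM of Mt1 in the other libraries. The 134 endothelial cells of early sponge without a fibroblast-marker UMI had 102 CPM of Mt1 and 98.5 of Mt2. Myocytes, found in number in the sponge libraries only, had 639 and 281 CPM of Mt1, early and late. At their marker share fibroblast RNA would bring 132 and 96.0 CPM of it. The part of fibroblast RNA in endothelial cells and myocytes was not tested. NK and T cells had 38.0 to 134 CPM of Mt1, control B cells 60.5, and neutrophils 158, 63.1 and 134 CPM, with 1 UMI in late silk. Subcluster N3, which carried macrophage markers, made up 106 of 1044 neutrophils in early sponge and 59 of 814 in early silk but held 254 of the 376 and 121 of the 188 Mt1 UMIs. In the control the intervals of NK and T cells (69.6 CPM) and B cells overlapped, and both lay below Mo-Mac cells.

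Mt3 was rare in control Mo-Mac cells, at 3.60 CPM, and reached 30.7 and 239 CPM in sponge and 79.3 and 106 in silk. Late sponge was the highest and all 4 granulomas lay above the control. Their log2 ratios to it were 3.09 (2.90 to 3.28), 6.05 (5.87 to 6.23), 4.46 (4.28 to 4.64) and 4.88 (4.68 to 5.09). It was called higher in 3 of the 4, late sponge (11% of genes), early silk (10.9%) and late silk (9.97%), which share the control. Early sponge was under 50 CPM. The share of Mo-Mac cells with a UMI was 0.681% for the control against 1.72%, 11.2%, 5.20% and 9.19%, and 0.188% against 0.604%, 6.54%, 2.30% and 3.40% after thinning. Against sponge, silk was higher at 2 weeks (log2 ratio 1.37; called, as 1.75% of genes) and lower at 4 weeks (-1.17; called, as 0.614% of genes). Late sponge was higher than early sponge (2.96; called, as 1.86% of genes, with 4.04% lower). Late against early silk gave 0.43, not called (0.833% of genes higher, 0.961% lower).

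The higher Mt3 of early silk over early sponge was not found within C7 over all its cells, and its direction there rested on 5 cells. C7 made up 9.09% of the cells of early sponge and 43.6% of those of early silk. Inside C7 the level of Mt3 was 109.5, 346, 93.3 and 138.5 CPM. Silk to sponge at 2 weeks was then -0.23 (-0.33 to -0.13), not called (1.24% of genes lower). Without the 5 highest cells of each library the level was 45.2 CPM in early sponge and 68.8 in early silk, so that silk was the higher. Late silk, at 60.2 CPM, then lay below early silk and not above it. Silk to sponge at 4 weeks was -1.32 (-1.44 to -1.20), called lower as 0.529% of genes were. Late against early sponge was 1.66 (1.57 to 1.75), called higher as 1.03% of genes were, so this difference was present inside the subcluster. Late against early silk was 0.57, not called (0.911% of genes higher). With equal weight to each Mo-Mac subcluster, silk to sponge at 2 weeks over the class was -0.03. Among Mo-Mac cells without a fibroblast-marker UMI, silk to sponge at 4 weeks was 0.41, and the level in those cells was 2.57, 97.7, 69.6 and 130 CPM. Those cells were shallower in sponge, with medians of 2965 and 2056 UMIs, and in early sponge they held 9 UMIs of Mt3.

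Outside C7 the levels were lower in the other Mo-Mac subclusters, and in 1 neutrophil subcluster they reached that of C7. C8 had 30.5 to 40.4 CPM and C6 4.69 to 28.1. Fibroblasts had 1.13 to 4.38 CPM, and their subcluster F4 11.2, 51.3 and 10.5. F4 also carried macrophage markers at a summed 4348, 5718 and 5462 CPM, against 68 to 121 in F1. Neutrophil subcluster N3 had 9.06 and 102 CPM of Mt3 in early sponge and early silk, the latter near the 93.3 CPM of C7 in that library, with 12709 and 13438 CPM of macrophage markers. The part of those macrophage transcripts in the Mt3 of F4 and N3 was not tested.

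Even in C7 few cells carried Mt3. A UMI was found in 96 of 1122 cells of early sponge, 457 of 2078 of late sponge, 323 of 4461 of early silk and 77 of 496 of late silk, or 8.56%, 22.0%, 7.24% and 15.5% (3.04%, 11.5%, 2.92% and 4.67% after thinning). In the deeper F1 fibroblasts, where the level of Mt3 was at most 0.838 CPM, the shares were 0.295%, 0.603%, 0 of 105 cells (a floor of 3 cells allows up to 2.86%, and the Clopper-Pearson limit is 3.45%) and 0.794%. Cells with at least 10 UMIs numbered 22, 117, 57 and 10 and held 84.5%, 79.6%, 77.6% and 72.7% of the C7 Mt3 UMIs. The highest cell held 277, 258, 232 and 228. The 5 highest cells held 59.4%, 21.4%, 26.4% and 57.9%, and without them the level was 45.2, 277, 68.8 and 60.2 CPM. Late sponge thus had the most such cells and leaned least on the top 5. Over all Mo-Mac cells the silk change with time became -0.28 without the 5 highest cells of each library. In the control 8 Mo-Mac cells reached 10 UMIs, the highest at 28.

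**Figure D4:**
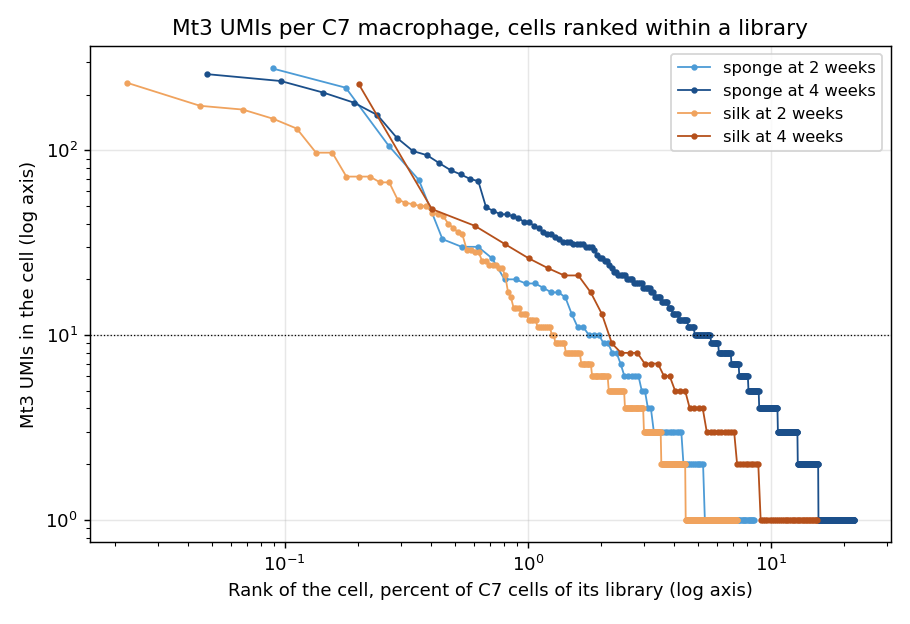
Mt3 UMIs per C7 cell (log axis) against the cell's rank as a percentage of the library's C7 cells (log axis), one line per granuloma library. In late sponge 22.0% of cells have a UMI, against 7.24% to 15.5% in the others, and the highest cell of each library holds 228 to 277 UMIs.

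The C7 cells with at least 10 Mt3 UMIs were set beside C7 cells with 0 (rule and genes chosen after the values were seen; a description). They were deeper, with a median of 16724, 11197, 15621 and 24559 UMIs against 6513, 4475, 6100 and 6518. Here and in the splits by Mt1 and Mt2 below, a gene was measured where either set of cells reached 50 CPM. No minimum of UMIs was set. The 10 cells of late silk held 325701 UMIs in all, so 50 CPM there rests on few UMIs. Of 2453 genes measured, 0.367% were at least 2-fold higher in all 4 libraries and 1.22% lower. Mmp12, a macrophage elastase, stood at 7756, 7924, 13706 and 20814 CPM against 2286, 2423, 2379 and 3820. Ctsk, the collagen-cleaving cathepsin of osteoclasts, stood at 3667, 5211, 3000 and 3684 CPM against 692, 1950, 1037 and 1492. Serpinb9b, Ckb, Uchl1, Fgfr1, Cd200, Wfs1 and Sec11c were the other genes on the higher side. The lower side held C1qa, a complement subunit made by macrophages, at 183, 132, 276 and 89 CPM against 1110, 1173, 862 and 1232, with Ccr2, the monocyte chemokine receptor, Selenop, Stab1 and H2-Eb1. Set beside 0-Mt3 cells of at least 10000 UMIs, Serpinb9b, Mmp12 and Uchl1 were still at least 2-fold higher in all 4 libraries (0.127% of 2363 genes, with 0.677% lower), and Ctsk missed it with a smallest log2 ratio of 0.84. The part of depth or of doublets was not tested further. Counted by library, 1.67%, 1.39%, 1.9% and 3.56% of all genes were at least 2-fold higher in these cells and 4.61%, 3.15%, 4.77% and 7.34% lower. Of the 3 or 4 zinc importers and 4 copper handling genes at 50 CPM, 0 were. Macrophage markers were lower for 4, 4, 2 and 3 of 7, and dissociation genes for 1 of 19, 1 of 18, 1 of 17 and 9 of 18. S100a8 and S100a9 were at least 2-fold higher in early sponge, with log2 ratios of 1.63 and 1.28, and had -0.77 to 0.66 in the other libraries.

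The F1 fibroblasts in the top 10% by Mt1 and Mt2 share (136, 83, 11 and 13 cells) were set beside the lower 50% in the same way. At least 2-fold higher in all 4 libraries were 0.64% of 2344 genes, and 0.171% were lower. The high cells of early and late silk held 101800 and 121892 UMIs in all, so 50 CPM there rests on few UMIs. Il6 stood at 849, 1033, 855 and 1477 CPM against 99.1, 77.9, 59.9 and 43.7. Socs3, the feedback inhibitor induced by interleukin-6 type cytokines, stood at 410, 1048, 668 and 1108 CPM against 94.4, 164, 136 and 290. Saa3, an acute-phase protein, stood at 3120, 1686, 10933 and 4356 CPM against 445, 310, 2015 and 1376. Ptx3, Cebpd, Cebpb, Icam1, Myc and Cxcl12 were also among the 15 higher genes, and Wnt2, Sema3c, Cd55 and Fbn1 were the 4 lower. Of the genes known to respond to tissue dissociation, 3 of 20, 1 of 20, 11 of 20 and 1 of 19 were at least 2-fold higher in the same cells, the most in early silk. By library 4.87%, 4.55%, 6.39% and 7.18% of all genes were. The part of dissociation was not tested. In C7 the same split by Mt1 and Mt2 gave 0 of 2421 genes. C7 cells held a median of 3, 1, 1 and 2 UMIs of the 2 genes, against 42.5, 25, 6 and 31 in F1. The C7 split thus ranks cells on few UMIs, and its 0 cannot show that no genes vary with Mt1 and Mt2 there.

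**Figure D5:**
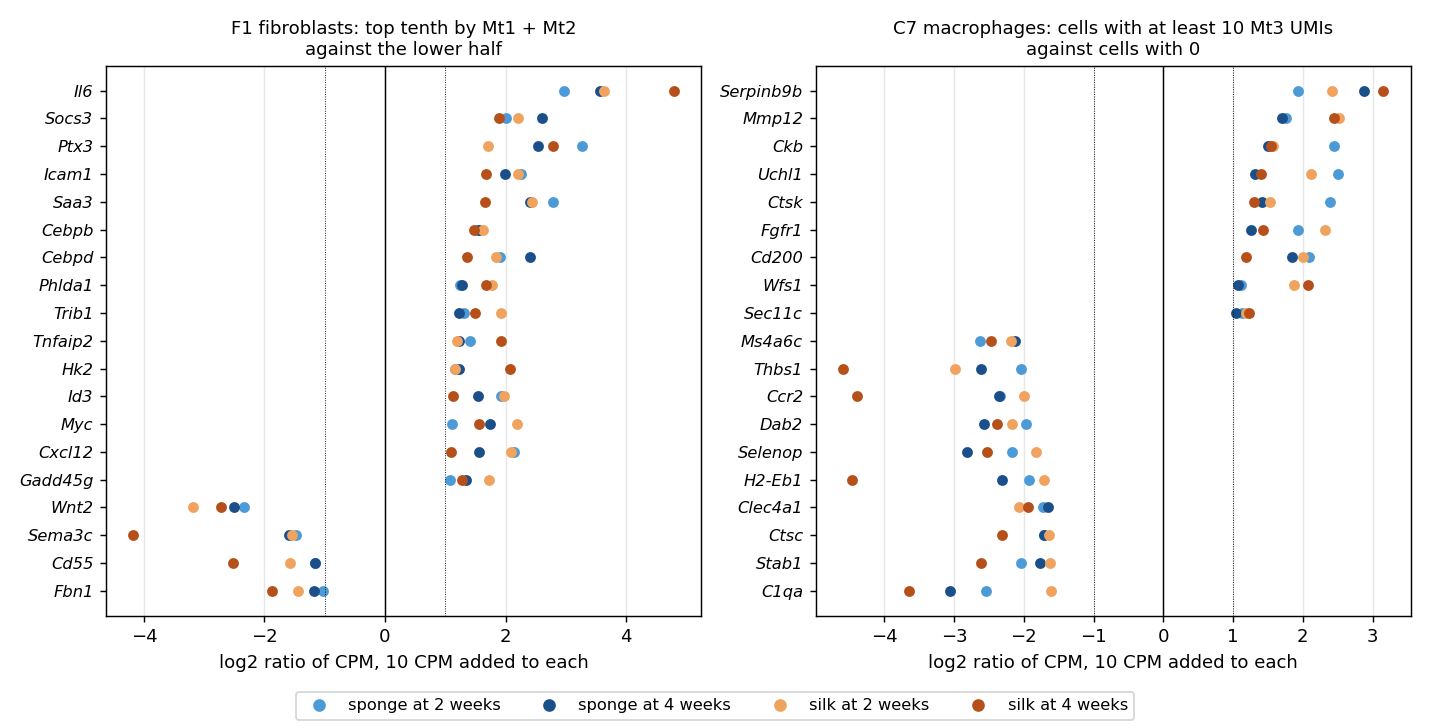
Log2 ratio (CPM with 10 added) of selected genes between C7 cells with at least 10 and 0 Mt3 UMIs, and between F1 cells in the top 10% and lower 50% by Mt1 and Mt2, one point per granuloma library. Mmp12 and Serpinb9b are higher with Mt3 in all 4 libraries and Il6, Socs3 and Saa3 with Mt1 and Mt2.

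Other genes of metal handling were read from fixed lists in Mo-Mac cells, each granuloma against the shared control. Of 10 zinc exporters 6 were measured, but none reached the minimum for a call, so that none could be called. Their median log2 ratios were 0.14, 0.24, 0.39 and 0.33 beside -0.11, -0.02, -0.05 and -0.04 over all genes. Slc30a1, the zinc exporter of the cell surface and a textbook MTF-1 target, had log2 ratios of 0.98, 0.62, 0.51 and 0.44. Slc30a4 had 0.86, 1.97, 1.47 and 1.93. Of 14 zinc importers 12 or 13 were measured, 2, 2, 3 and 2 reached the minimum, and 1, 0, 1 and 0 of these were called higher, beside 11.9%, 11%, 10.9% and 9.97% of all genes. That gene was Slc39a14, the importer induced by interleukin-6 in liver, at 6.24 CPM for control cells against 50.4, 32.3, 52.3 and 26.8 CPM. Slc39a4, the importer of gut, had 3 control UMIs against 247, 181, 488 and 80, with log2 ratios from 6.96 (5.62 to 9.47) to 8.08 (6.69 to 10.6) and levels of at most 12.6 CPM. Slc39a10 had ratios of -1.07 to -0.68. Mtf1 itself had ratios of -0.32, 0.04, -0.27 and -0.39.

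Of 11 copper genes 9 were measured, with median log2 ratios of 0.54, 0.26, -0.02 and 0.22. Ratios above 0 numbered 7, 6, 4 and 6. Of the 6, 4, 4 and 4 that reached the minimum, 0, 0, 2 and 1 were called higher, beside 11.9%, 11%, 10.9% and 9.97% of all genes. Atox1, a copper chaperone, had 0.65, 0.54, 1.03 and 1.02, and Cox17, which delivers copper to mitochondria, 0.75, 0.79, 1.08 and 0.46. Commd1 went the other way, at -0.17, -0.77, -0.42 and -0.35. S100a9, a subunit of the zinc-binding calprotectin, had 8 UMIs in the control and ratios of 8.96, 8.33, 7.98 and 6.23, and S100a8, its partner, 2.46, 1.55, 2.47 and 1.45. Both also stand on the list of 5 neutrophil markers, whose sum in the same cells was 72.7 CPM for the control and 94.8 to 212 for the granulomas, with no marker at 0. The part of neutrophil RNA was not tested. The interleukin-6 family list had medians of 3.19, 2.68, 2.63 and 1.69, with Socs3 at 3.19, 2.68, 2.74 and 2.55. Its members went both ways: of 6 that reached the minimum in each comparison, 3, 2, 2 and 2 were called higher and 1, 2, 2 and 1 lower. For this list and those below, the shares over all genes were 11.9%, 11%, 10.9% and 9.97% higher and 5.67%, 5.68%, 5.85% and 5.15% lower. Osm, a cytokine of the family, was called higher in each, and the lower ones were the receptors Il6ra, in the first 3, and Lifr, in the last 3. The glucocorticoid list also split, with medians of 0.35, -0.01, 0.32 and 0.03. Of 5, 6, 5 and 6 members that reached the minimum, 2, 3, 2 and 3 were called higher and 2, 3, 3 and 2 lower. Errfi1 had ratios of 3.39 to 4.17, Hsd11b1 2.12 to 3.14, Per1 1.28 to 1.91 and Zbtb16 -3.15 to -2.20. The hypoxia list had medians of 2.78, 1.46, 1.46 and 0.99, and the dissociation list 1.23, 1.24, 0.88 and 1.36. Of the 19, 18, 18 and 19 dissociation members that reached the minimum, 11, 12, 7 and 13 were called higher and 0, 0, 1 and 0 lower.

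In fibroblasts Slc30a1, Slc39a14 and Mtf1 did not follow Mt1 and Mt2 uniformly. Slc30a1 stood at 12.9, 6.05, 8.52 and 6.80 CPM, highest in the early sponge library as the metallothioneins were. Slc39a14 stood at 287, 250, 343 and 142 CPM, highest in the early silk library, where Mt1 and Mt2 were lowest. Mtf1 was lowest in early sponge, at 10.4 CPM, and highest in late silk, at 21.5. Slc30a1 and Mtf1 were under 50 CPM in every granuloma, so that neither could be called, and their order rests on low levels.

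Over 68 units of subcluster and library, the Pearson correlation of log2(CPM plus 10) was 0.86 between Mt1 and Mt2, 0.16 between Mt1 and Mt3 and -0.02 between Mt2 and Mt3. Units of 1 library share its depth and free RNA, and no p is given. The 5 genes most like Mt1 were Sh3pxd2b, Ecm1, Nucb2, Steap3 and Creb5, the first at 0.86. Those most like Mt2 were Il1rl2, C1ra, Efemp2, Nnmt and Mmp2. Those most like Mt3 were Vsig8, at 0.87, Mmp12, Rnf128, Ppbp and Hvcn1. Over the 24 Mo-Mac units, Mt1 and Mt2 correlated at 0.81, and both were most like Tspan3, at 0.89. Mt3 was most like Vsig8, at 0.91, then Sbsn, Clmp, Uchl1 and Gpc1. Mmp12 was thus among the 5 genes most like Mt3 over all 68 units but not over the Mo-Mac units. Uchl1 was among them over the 24 Mo-Mac units but not over all units. Both genes were also higher in the C7 cells with at least 10 Mt3 UMIs. The units were made from these same cells, and C7 held most of the granuloma Mt3. The likeness over units is therefore not separate evidence from the comparison of C7 cells.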

How the data were processed

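Single cells of 5 mouse libraries, 1 per group, were read from the deposited table of raw UMI counts and a table of cells with the authors' classes, UMI totals and mitochondrial percent. The submitters' processing notes name Cell Ranger 3.0.0, Seurat 3.0 and build mm10; the kit was the Chromium 3' v3, per the labels. How the authors filtered cells or treated doublets and reads shared by paralogs is not given in the sources used here, and Mt1 and Mt2 are close copies. The library of each cell was taken from its deposited library name. Here, counts were summed per class or subcluster and library and scaled to CPM (Python 3.11.15, numpy 2.4.6, scipy 1.17.1, pandas 2.3.3). Mo-Mac is the deposited class without C9; fibroblasts are without the subclusters KC and Low quality, and neutrophils without BP. Units under 50 cells were left out. Ratios had 0.5 counts added to each sum. Thinning drew 1000 UMIs per cell and left out shallower cells. The 2-fold rule and the counting interval of the ratios were tested on simulated sums. The members and lists were chosen with earlier results of these data known. Genes named by rule were the members, Mtf1, Slc30a1 and Slc39a14, up to 4 per list, and the 5 most correlated genes. Those of a list had the largest ratios in 1 direction in all contrasts. Genes named from the splits of C7 and F1 cells, and Il6ra and Lifr, were picked after the values were seen. Alternatives were other pseudocounts, scalings, weights and cell filters.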

Additional observations from a re-analysis of the deposited data

Results flagged for a closer look

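In 4 groupings of cells Mt1 and Mt2 differed between 2 and 4 weeks in opposite directions in the 2 materials, lower with time in sponge and higher in silk. Other groupings did not show this: in silk the log2 ratio was -0.24 for Mt1 and -0.80 for Mt2 in F2, -1.65 for Mt1 in C3 and -2.90 for Mt1 in neutrophils, where late silk had 1 UMI. Each group had 1 library, so the difference was not tested, and each value is a log2 ratio whose library of silk at 4 weeks was the smallest. In Mo-Mac cells Mt1 gave -0.39 in sponge and 0.27 in silk, a difference of 0.66 (the silk value was -0.02 with equal weight to each subcluster), and Mt2 -0.43 and 0.38, a difference of 0.81. In subcluster C7 the differences were 0.52 for Mt1 (-0.25 and 0.27) and 0.79 for Mt2 (-0.29 and 0.50). In fibroblasts they were wider, 2.18 for Mt1 (-0.91 and 1.27) and 1.47 for Mt2 (-0.73 and 0.75). In subcluster F1 they were 1.99 for Mt1 (-0.56 and 1.43) and 1.20 for Mt2 (-0.38 and 0.82).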

How the results depend on the processing

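No paired analysis was possible because each group had 1 library, and leaving out a replicate was not possible for the same reason. Of 150 alternative values of the log2 ratios, 60 stayed within the counting interval, 86 moved outside it and 4 reversed; the cause was not tested. A change of sign was counted as a reversal only where the counting interval of the value as reported did not hold 0. Alternatives for Mt3, for fibroblasts, without fibroblast-marker cells and without the 5 highest cells were chosen after seeing the data. Equal subcluster weights could not be formed against the control, which shared no subcluster of at least 50 cells with them but the left-out C9. Values below follow the order per-cell means, size factors, equal weights, low mitochondrial share, thinning, no fibroblast-marker cells and no highest cells, naming those that moved.

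Mt1 in Mo-Mac cells: the median against the control (0.59) was 0.52 thinned, 0.52 without fibroblast-marker cells and 0.49 without the highest cells. Silk to sponge at 2 weeks (-0.44) was -0.50 by per-cell means, -0.54 by size factors, -0.35 by equal weights, -0.48 thinned and -0.38 without fibroblast-marker cells. At 4 weeks (0.22) it was 0.14 by per-cell means, 0.11 by equal weights, 0.69 without fibroblast-marker cells and 0.12 without the highest cells. Sponge over time (-0.39) was -0.51 by size factors, -0.56 by equal weights, -0.43 at low mitochondrial share and -0.68 without fibroblast-marker cells. Silk over time (0.27) reversed to -0.021 by equal weights, and was 0.40 without fibroblast-marker cells and 0.14 without the highest cells.

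Mt2 in Mo-Mac cells: silk to sponge at 2 weeks (-0.85) was -0.95 by per-cell means and -0.95 by size factors, -0.51 by equal weights, -1.05 thinned and -0.72 without fibroblast-marker cells. At 4 weeks (-0.04, with an interval that held 0) it was 0.37 without fibroblast-marker cells and -0.28 without the highest cells. Sponge over time (-0.43) was -0.29, -0.56, -0.57 at low mitochondrial share and -0.59 thinned. Silk over time (0.38) was 0.63 without fibroblast-marker cells and 0.19 without the highest cells.

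Mt3 in Mo-Mac cells: silk to sponge at 2 weeks (1.37) was 2.14 by per-cell means, 1.27 by size factors, reversed to -0.027 by equal weights, and was 1.95 thinned, 4.68 without fibroblast-marker cells and 2.14 without the highest cells. At 4 weeks (-1.17) it was -1.37 by per-cell means, -0.83 at low mitochondrial share, -1.35 thinned, reversed to 0.41 without fibroblast-marker cells, and was -1.97 without the highest cells. Sponge over time (2.96) was 3.51, 2.84, 1.39 by equal weights, 2.65, 3.53 thinned, 5.17 and 3.82. Without fibroblast-marker cells early sponge kept 971 of 7113 cells with 9 Mt3 UMIs, so the 4.68 and the 5.17 rest on that low count. Silk over time (0.43) was 0.00037 by per-cell means, 0.23 thinned, 0.91 without fibroblast-marker cells and reversed to -0.28 without the highest cells.

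Mt1 in fibroblasts: silk to sponge at 2 weeks (-1.78) was -1.91, -1.94, -1.45 by equal weights, -1.86 thinned and -1.95 without the highest cells. At 4 weeks (0.40) it was 0.55, 0.52 by equal weights, 0.74 thinned and 0.26 without the highest cells. Sponge over time (-0.91) was -0.74, -0.99, -0.83, -0.88, -0.73 thinned and -0.93. Silk over time (1.27) was 1.73, 1.34, 0.98 by equal weights and 1.86 thinned.

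Mt2 in fibroblasts: silk to sponge at 2 weeks (-1.30) was -1.47 by size factors, -1.07 by equal weights, -1.23 thinned and -1.42 without the highest cells. At 4 weeks (0.18) it was 0.29 by per-cell means, 0.29 by equal weights, 0.087 thinned and 0.056 without the highest cells. Sponge over time (-0.73) was -0.63, -0.80, -0.68, -0.49 thinned and -0.76. Silk over time (0.75) was 0.99, 0.82, 0.38 by equal weights and 0.83 thinned.

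With 50 CPM added, genes called higher in Mo-Mac cells against the control numbered 255, 221, 210 and 204, from 400, 373, 370 and 331. Of the 5 genes most like Mt2, 2 over all units and 3 over Mo-Mac units were kept with 50 CPM added. Late silk had the fewest cells, 1873, and a median depth near that of late sponge.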
